A study of Mus musculus with 2 samples.

Results

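The 78 genes described here encode proteins of the cytosolic ribosome. They were chosen by symbol alone: Rpl or Rps with a number, Rplp0 to Rplp2, and Rpsa, with the fused gene Rps27a, the ribosomal S6 kinases, the "-like" copies and the "-ps" pseudogenes left out. All 78 annotated genes with such a symbol had at least 1 read, among 18580 annotated genes with reads in all. Of them 46 belong to the large subunit and 32 to the small subunit. The annotation lists 2 of the 78, Rps3a2 and Rps3a3, as processed pseudogenes, and their sequences are 99.5% and 99.0% identical to the coding sequence of Rps3a1.

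The cytosolic ribosome makes the cell's proteins from mRNA, and its protein subunits are needed in matched amounts. Their mRNAs are short, abundant and intron-containing, and most begin with a C followed by a run of pyrimidines, the 5′ terminal oligopyrimidine (TOP) tract, through which growth signals set their translation. The same genes have left many intronless copies in mammalian genomes, and the steroid-making adrenal cortex and the catecholamine-making medulla both express them.

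Long-read RNA sequencing, in which a read can span a whole transcript, was done on adrenal glands of male mice of the cross B6CASTF1/J aged 10 days, in 1 group of 2 replicates with no treatment or mutant. Per the labels the RNA was total RNA with added spike-in RNAs, and replicate 2 started from 1 µg, a quantity not given for replicate 1. The labels carry 2 conflicting animal numbers for replicate 2, and a single donor entry covers both replicates, so whether 1 or 2 animals were sampled is unclear. Every p-value therefore compares 2 libraries, and the spread between them may be technical. The files held 927914 reads on annotated genes in replicate 1 and 1303420 in replicate 2. Levels are given as CPM, reads per 1000000 of these reads. A long read counts a molecule once, so a level was not divided by transcript length, and where the capture of short and long molecules differs, the order of genes differs with it.

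The tissue label was checked against defining markers. The cortex gene Cyp11a1, which starts steroid synthesis, stood at 7423 and 7442 CPM in replicates 1 and 2. It was the only cortex marker not lower in replicate 2. All 6 cortex and all 6 medulla markers had reads in both. The libraries differed in makeup. Markers are called higher or lower by Fisher's exact test with adjustment over all genes tested, of which 13% were higher and 22.2% lower. The sum of the 6 cortex markers was 30893 and 19802 CPM, with 0 of 6 higher and 5 lower in replicate 2. The 6 medulla markers summed to 11418 and 6070 CPM, with 0 higher and 4 lower. The sum of 8 liver markers was 17286 and 45540 CPM, with 8 of 8 higher. That of 5 red cell markers was 1329 and 4599 CPM, with 4 higher and 1 lower. The 4 brown fat markers summed to 7735 and 7794 CPM (3 higher, 1 lower), and the 4 macrophage markers to 178 and 377 CPM (2 higher, 0 lower). No marker of these lists was at 0 in either library.

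Transcript starts show the TOP feature in only some of these genes as annotated. In 8 of 77 members with 10 or more reads (10.4%) the most-read annotated transcript began with C and at least 5 C or T in a row, against 2.28% of 10949 other genes tested. The first 20 bases of 7 of these GENCODE M21 transcripts, with the C/T run in capitals, are shown because they carry the tract at the annotated start:
Rpl4: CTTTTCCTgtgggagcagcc
Rpl32: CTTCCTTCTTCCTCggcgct
Rpl36: CTTCCTgtcccggccgccat
Rpl37: CTCTTCCggtctctttggcc
Rpl37a: CTCTTCggacttgggcttgg
Rps21: CCCTCCTgcccaatagtgct
Rps24: CTCTTTTCCTCCTCTCCagc

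RefSeq promoter windows (build GRCm38.p6) were searched too. They matched 57 of the 78 members, in 67 windows. A run of 8 or more C or T, on the sense strand and reaching within 10 bases of the start, was found in 28 of the 67 windows (41.8%) and in 14% of all 32851 windows. The motif CTTTCC, which can lie within such a run, was found anywhere in the 300-base window on that strand in 38.8% of member windows and 14.1% of all windows. The following 60-base windows hold 40 bases before the start and 20 from it, with the run in capitals. They were picked after the values were seen, from a gene lower in replicate 2 (Rpl4), a gene that did not pass (Rps6) and higher genes (Rplp2, Rpl38 and Rpl27a), and lie at chr9:64173347-64173406 (+), chr4:86857348-86857407 (-), chr7:141447611-141447670 (+), chr11:114668540-114668599 (+) and chr7:109519155-109519214 (+):
Rpl4: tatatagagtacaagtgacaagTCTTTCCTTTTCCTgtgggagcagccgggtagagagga
Rps6: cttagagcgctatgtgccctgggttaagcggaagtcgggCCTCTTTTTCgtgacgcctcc
Rplp2: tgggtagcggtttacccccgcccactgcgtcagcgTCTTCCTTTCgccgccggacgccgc
Rpl38: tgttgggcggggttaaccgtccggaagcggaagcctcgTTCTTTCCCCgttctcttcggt
Rpl27a: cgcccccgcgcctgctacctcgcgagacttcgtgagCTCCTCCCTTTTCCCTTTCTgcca

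The ribosomal protein genes together took a larger share of replicate 2. They had 13064 reads in replicate 1, 1.41% of reads on annotated genes (95% Clopper-Pearson interval 1.38 to 1.43), and 41518 in replicate 2, 3.19% (3.16 to 3.22). Intervals cover counting error only. The summed level was 14079 and 31853 CPM, a mean of 22966 ± 12568 CPM (SD, n = 2), and a ratio of 2.26. The large-subunit genes summed to 9672 and 20454 CPM in replicates 1 and 2, and the small-subunit genes to 4407 and 11399 CPM.

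Most members shared that direction. By Fisher's exact test with Benjamini-Hochberg adjustment over all 11650 genes with 10 or more reads, 68 of 77 members were higher in replicate 2, where 13% of all genes tested were higher. Only Rpl3 and Rpl4 were lower, where 22.2% of all genes tested were lower, and 7 members did not pass in either direction. In the large subunit 38 genes were higher and 2 lower of 46, and in the small subunit 30 were higher and 0 lower of 31. The log2 ratio of replicate 2 to replicate 1, with 0.5 reads added to each count, had a median of 1.61 over the members and -0.25 over all genes tested. It reached 1 in 58 members and 2 in 22, counts for which the share over all genes was not computed. Over the members the median level stood at 106 and 355 CPM, and 40 and 70 of the 78 lay above 100 CPM. An alternative, edgeR's exact test with a common dispersion, treats the 2 libraries as replicates of 1 group. It called 0 of 77 members after adjustment, where 0.249% of all genes were called. Its dispersion was estimated from the difference between these same 2 libraries. Few calls were therefore likely from the start, and it cannot decide which members differ. The higher sums of the liver, red cell and macrophage markers and the lower sums of the cortex and medulla markers moved with this result, and their part in it was not tested. In bulk tissue, more cells of a type and more RNA per cell cannot be told apart.

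**Figure D1:**
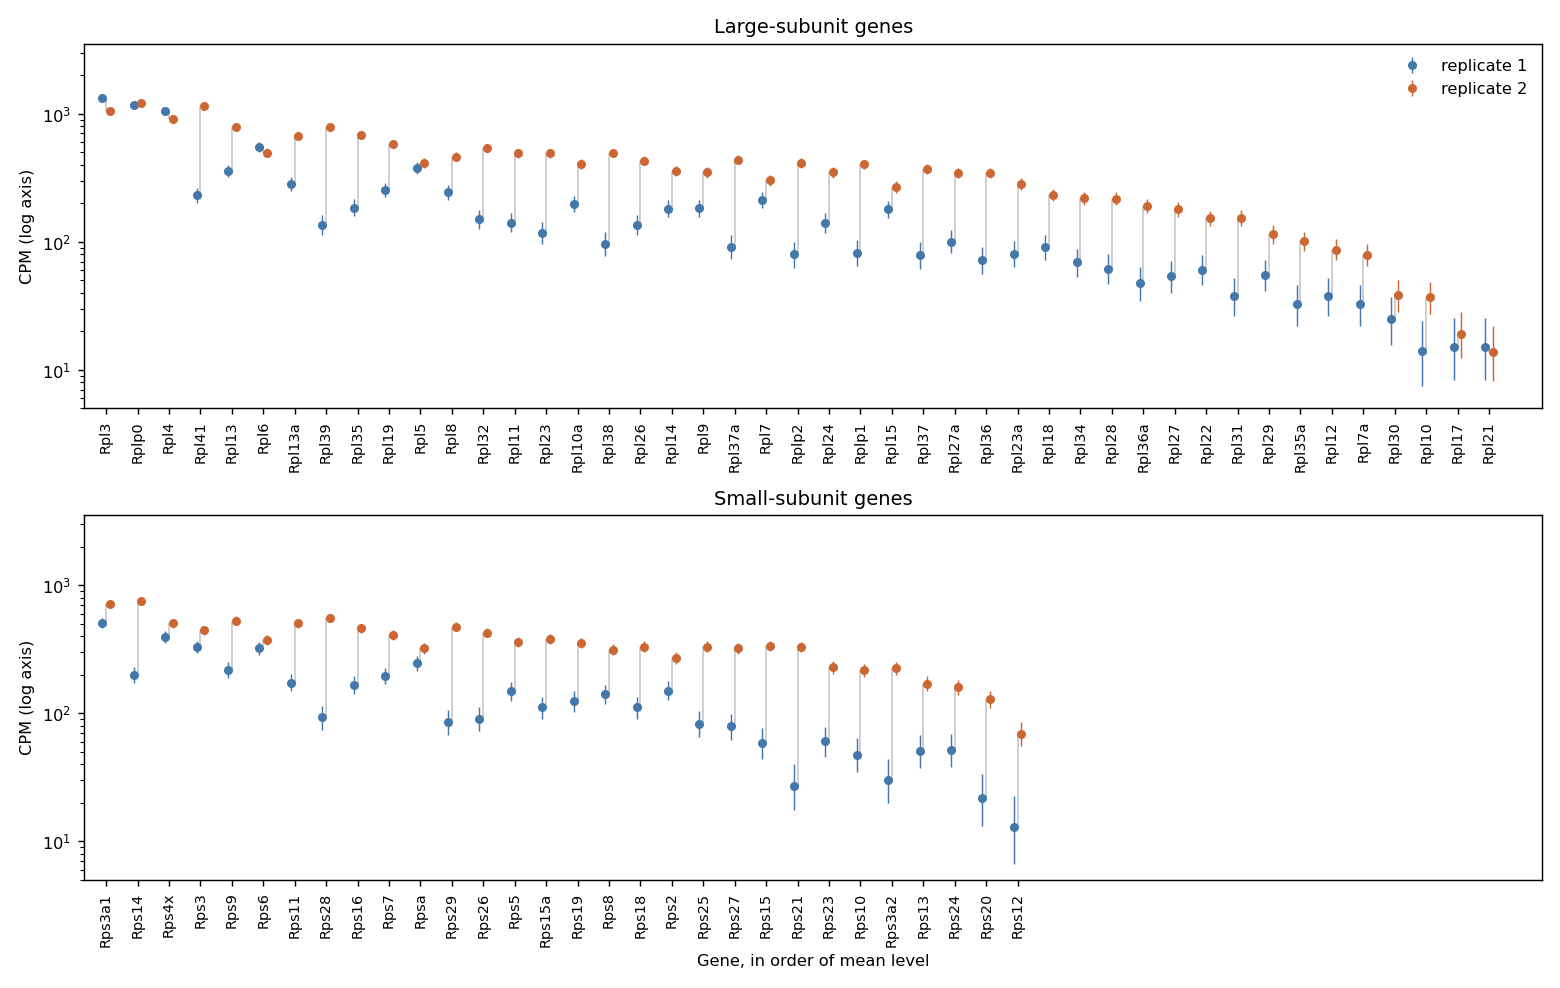
Level of 75 of the 77 members with 10 or more reads, the other two not being reported here (CPM, log axis), in replicate 1 (blue) and replicate 2 (orange), ordered by mean level within each subunit; bars are 95% exact Poisson intervals. Replicate 2 lies above replicate 1 for nearly all genes, while Rpl3, Rpl4, Rpl6 and Rpl21 lie the other way.

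Rpl3, which lies near the catalytic centre of the ribosome, had 1326 and 1046 CPM. Rpl4, which lines the exit tunnel, had 1041 and 913 CPM. Both were lower in replicate 2, with log2 ratios of -0.34 and -0.19 (Fisher's exact test, adjusted p = 2.83e-08 and 0.0100). Neither was called lower with TMM scaling, which raised the log2 ratio of all genes by 0.26: Rpl3 then stood at -0.08 and Rpl4 at 0.074. Rplp0, the base of the ribosomal stalk, had 1159 and 1210 CPM and did not pass (log2 ratio 0.06, Fisher's exact test, adjusted p = 0.437), but was called higher with TMM scaling (0.33). Rpl3, Rplp0 and Rpl4 made up 25% of the members' reads in replicate 1 and 9.95% in replicate 2.

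Further genes among the 10 with the highest mean level were mostly higher in replicate 2. Rpl41, the smallest protein of the set, stood at 231 and 1156 CPM (5.01-fold). Rps3a1, a small-subunit protein, stood at 505 and 715 CPM (1.41-fold), and lost its call when only annotated transcripts were counted. Rpl13 stood at 358 and 793 CPM, Rpl13a at 283 and 671 CPM, and Rps14, whose human counterpart is lost in a form of myelodysplasia, at 199 and 746 CPM. Rpl6 stood at 547 and 496 CPM and did not pass.

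The 3 stalk genes had different ratios. Rplp1 and Rplp2, the acidic proteins that bind Rplp0 in pairs and recruit elongation factors, stood at 81.9 and 401 CPM and at 79.8 and 413 CPM. Their log2 ratios were 2.28 and 2.36, against 0.06 for Rplp0. The difference between these ratios was not tested. The most-read annotated transcript is 499 nt for Rplp1, 964 nt for Rplp2 and 1358 nt for Rplp0.

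With all reads of a gene counted, the highest ratios were those of Rps21, Rps3a2, Rps28, Rpl39 and Rps20. Rps21 had 25 reads in replicate 1 and 428 in replicate 2, 26.9 CPM (95% exact Poisson interval 17.4 to 39.8) and 328 CPM (298 to 361). Its log2 ratio of 3.58 was the highest of the 77 (Fisher's exact test, adjusted p = 6.79e-67). The pseudogene Rps3a2 had 28 and 292 reads (log2 ratio 2.87), and counting could split reads between it and the near-identical Rps3a1. Rps28 and Rpl39, which are among the shortest proteins of the set, had log2 ratios of 2.56 and 2.54, and Rps20 had 2.54. At the other end were Rpl3, Rpl4, Rpl6 (-0.14), Rpl21 (-0.14) and Rplp0. The order at the top changed with annotated transcripts only. Rps3a2 then stood at 2.98, Rps15 at 2.71, Rps21 at 2.69, Rps28 at 2.61, Rps20 at 2.52 and Rpl39 at 1.98.

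Values of some members known from growth control or disease follow, picked by that background and not as a tested list. Rps6, the target of S6 kinase, had 297 and 487 reads (320 and 374 CPM) and did not pass (Fisher's exact test, adjusted p = 0.0882). Rpl5, which with Rpl11 and 5S RNA binds Mdm2, did not pass at 376 and 411 CPM. Both were called higher with TMM scaling (log2 ratios 0.49 for Rps6 and 0.39 for Rpl5), with DESeq2 size factors and with annotated transcripts only. Rpl11 was 3.48-fold higher at 141 and 491 CPM, and the difference between its ratio and that of Rpl5 was not tested. Rps19, the gene mutated most often in Diamond-Blackfan anemia, was 2.85-fold higher. Rpsa, also known as a laminin receptor, was 1.30-fold higher at 246 and 320 CPM, and lost its call when only annotated transcripts were counted.

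The ratio was higher in members with a shorter coding sequence, a measure chosen after the data were seen. Members with a coding sequence under 300 nt had a median log2 ratio of 2.35, and all 9 were higher in replicate 2. From 300 to 450 nt the median was 1.89 (25 of 26 higher), from 450 to 600 nt 1.31 (15 of 17), from 600 to 900 nt 0.95 (17 of 20), and in the 4 members from 900 to 1300 nt it was -0.06 (1 higher, 2 lower). Other genes of the same coding lengths were higher in 52.8%, 44.2%, 23.9%, 13.5% and 8.54%, with medians of 1.02, 0.64, 0.13, -0.14 and -0.31. Members and other genes thus fell in the same order of coding length, and the members had the higher median in each class. By length of the most-read annotated transcript the fall was less even. The members' medians were 2.30 under 500 nt, 1.77 from 500 to 700 nt and 1.16 from 700 to 1000 nt. They were 1.46 from 1000 to 1300 nt and 0.43 above that.

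As a description across genes, which share libraries and are not independent replicates, Spearman's rho of the log2 ratio with coding length was -0.82 over 76 members and -0.24 over 11014 other genes. With the length of the most-read annotated transcript it was -0.51 over the same members. Some of these transcripts are much longer than the usual message, such as Rps15a-204 with 5179 nt and Rps20-203 with 3706 nt. The level in replicate 1 had a rho of 0.57 with coding length and that in replicate 2 a rho of 0.13. The levels in the 2 replicates had a rho of 0.81 with each other.

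Against the ratio of other genes with the same transcript length, 47 of 77 members were called higher and 2, Rpl3 and Rps6, lower, where 13.3% and 9.95% of the 11031 genes in that comparison were called (exact binomial test, Benjamini-Hochberg adjustment). The members' median excess was 0.59. Rps6 changed direction there, to -0.42 (exact binomial test, adjusted p = 0.00102). Against the ratio of other genes of the same coding length, chosen after the data were seen, 71 of 76 members were higher and 0 lower, with a median excess of 1.21, where 14.3% and 11.1% of the 11090 genes compared were called. Rps21 had an excess of 2.56 and Rpl3 one of -0.03.

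**Figure D2:**
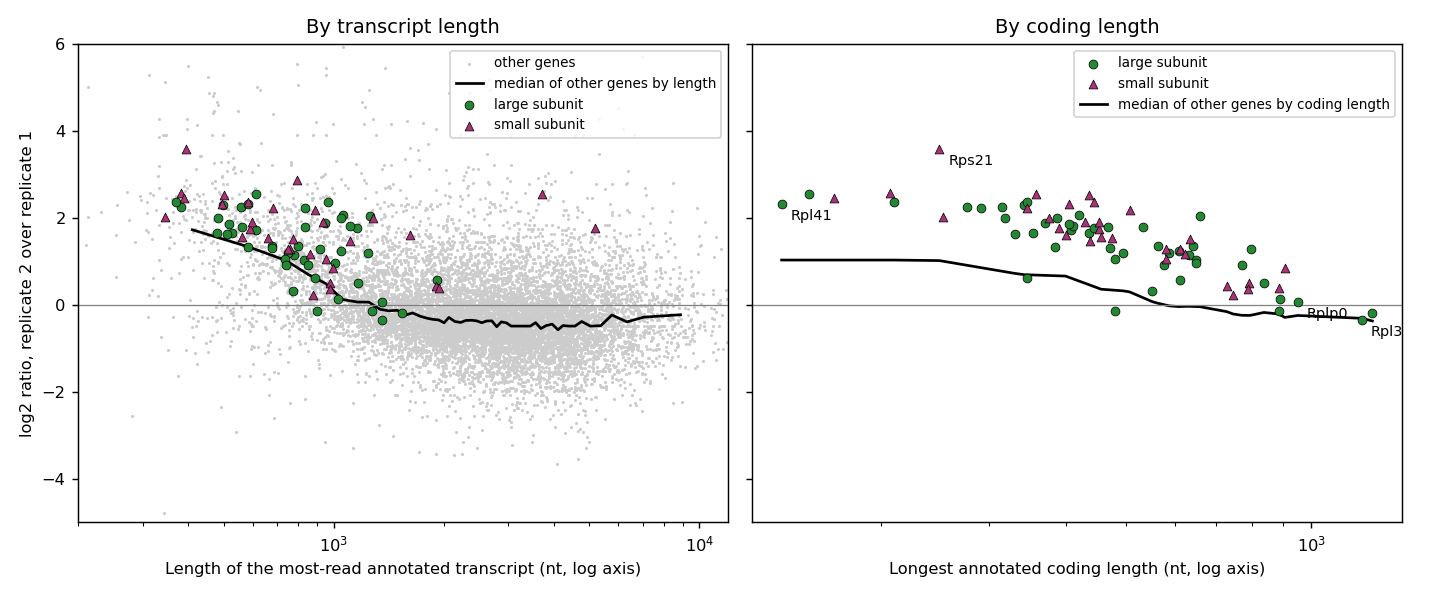
log2 ratio of replicate 2 to replicate 1 against the length of the most-read annotated transcript (left, with other genes in grey) and against the longest annotated coding length (right), both on log axes; circles are large-subunit and triangles small-subunit genes, and the black line is the median of other genes by length. Members fall from Rps21 at 3.58 toward Rpl3 at -0.34 as the coding sequence lengthens, mostly above the line.

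The 5 members with the lowest mean level were Rps3a3 (0 and 1 reads), Rpl21 (14 and 18), Rpl17 (14 and 25), Rpl10 (13 and 48) and Rpl30 (23 and 50). For Rps3a3 a count of 0 in replicate 1 allows up to 3.23 CPM (3 reads). Rpl10, which joins the large subunit late in its assembly, was 2.63-fold higher. It lost that call without models of the deposited class Genomic, 1 and 14 of its reads (log2 ratio 1.04, Fisher's exact test, adjusted p = 0.0631). The call was also lost when set against the ratio of other genes of equal transcript length (0.51, exact binomial test, adjusted p = 0.472). Rpl21, Rpl17 and Rpl30 did not pass. Rpl30 was, however, called higher with TMM scaling (0.88, exact binomial test, adjusted p = 0.0477), with DESeq2 size factors and with annotated transcripts only.

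Other annotated genes with reads and at least 95% identity over at least 80% of a member's coding sequence numbered 196, for 68 of 76 members, of which 183 are annotated as pseudogenes. They held 3035 reads in replicate 1 and 10529 in replicate 2, 18.9% and 20.2% of the members' and copies' reads together. Counting could split reads between a member and such a copy, so the values of these members are uncertain. The copies had more reads than the member in both libraries for 11 members. Copies of Rpl21 had 298 and 623 reads, against 14 and 18 on Rpl21. Copies of Rpl10 had 118 and 390 against 13 and 48, nearly all on Rpl10-ps3, annotated as protein-coding and identical over the aligned coding sequence. Copies of Rpl17 had 83 and 177 against 14 and 25.

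Single copies could be large. Gm14303, identical to Rps29 over the aligned part, had 88 and 1212 reads, against 79 and 616 on Rps29. Rpl3-ps1 had 577 and 631 reads, against 1230 and 1364 on Rpl3, and Gm8172 had 285 and 545, against 297 and 487 on Rps6. With copies added to each member, an alternative chosen after the data were seen, 73 of 77 were higher and 2 lower. Of all 11650 genes tested in that setting, 13% were higher and 22.2% lower. Rps6, Rpl5, Rpl17 and Rpl30 then passed as higher. Rpl21 moved from -0.14 to 0.55 (Fisher's exact test, adjusted p = 2.46e-07).

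The reads differed in how much of the transcript they matched. The deposited data class each transcript model as annotated, as an incomplete match to an annotated transcript, as a new combination or splice site, or as Genomic. Of the members' reads 89.8% in replicate 1 and 82.3% in replicate 2 were on annotated transcripts, a mean of 86.0% ± 5.35 (SD, n = 2), against 79.8% and 73.9% over all annotated genes. Incomplete matches made up 7.94% (95% Clopper-Pearson interval 7.48 to 8.41) and 16.0% (15.6 to 16.3), against 8.86% and 13.1% over all annotated genes. Their share differed widely among members, as between Rpl23a (0%) and Rpl39 (62.8%) in replicate 2. Reads on single-exon models outside the annotation were 1.16% and 4.67% of the members' reads, a mean of 2.91% ± 2.48 (SD, n = 2), against 3.62% and 10.1% over all annotated genes. Reads outside annotated transcripts were 10.2% and 17.7% of the members' reads, against 20.2% and 26.1% over all annotated genes. This share was higher in replicate 2 in 50 of 78 members, including those with few reads. The matching count over all genes was not computed.

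Most incomplete matches were to the 3′ end of an annotated transcript. Such models ("suffix") had 912 and 4864 reads, those that match the 5′ end ("prefix") 16 and 80, and single-exon matches 105 and 1671. A suffix was not always a short piece: a 6-exon suffix of Rplp0 has 1535 nt, against 1358 nt for its most-read annotated transcript.

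Short 3′ pieces were frequent in 4 genes shown here. In Rpl39, a protein of the exit tunnel, a single-exon model of 230 nt on chromosome X had 50 of 125 reads (40%) and 641 of 1027 (62.4%). In Rps21 a 2-exon suffix of 121 nt had 5 of 25 (20.0%, interval 6.83 to 40.7) and 267 of 428 (62.4%, 57.6 to 67.0). In Rps3a1 a single-exon model of 171 nt had 16 of 469 (3.41%) and 269 of 932 (28.9%), and in Rpl23 one of 127 nt had 7 of 109 (6.42%) and 202 of 641 (31.5%). Each of these shares was higher in replicate 2. In Rpl17, with few reads, 9 of 14 and 19 of 25 were outside annotated transcripts (64.3% and 76%). With annotated transcripts only, Rps21 had 14 and 121 reads and a log2 ratio of 2.69.

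Spliced incomplete models were matched between libraries by their exon junctions, so that ends could differ by some bases. A 2-exon suffix of Rps25 had 0 of 77 and 87 of 432 reads (20.1%). One of Rpl32 had 2 of 139 (1.44%, interval 0.175 to 5.10) and 134 of 707 (interval 16.1 to 22.0%). A 6-exon suffix of Rpl6, 1782 to 1783 nt long, had the higher share in replicate 1, with 92 of 508 (18.1%, 14.9 to 21.7) and 61 of 646 (9.44%). That model is not a short 3′ piece: it is longer than Rpl6-201 (1270 nt) and starts at chr5:121204546, near the gene start at 121204481.

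**Figure D3:**
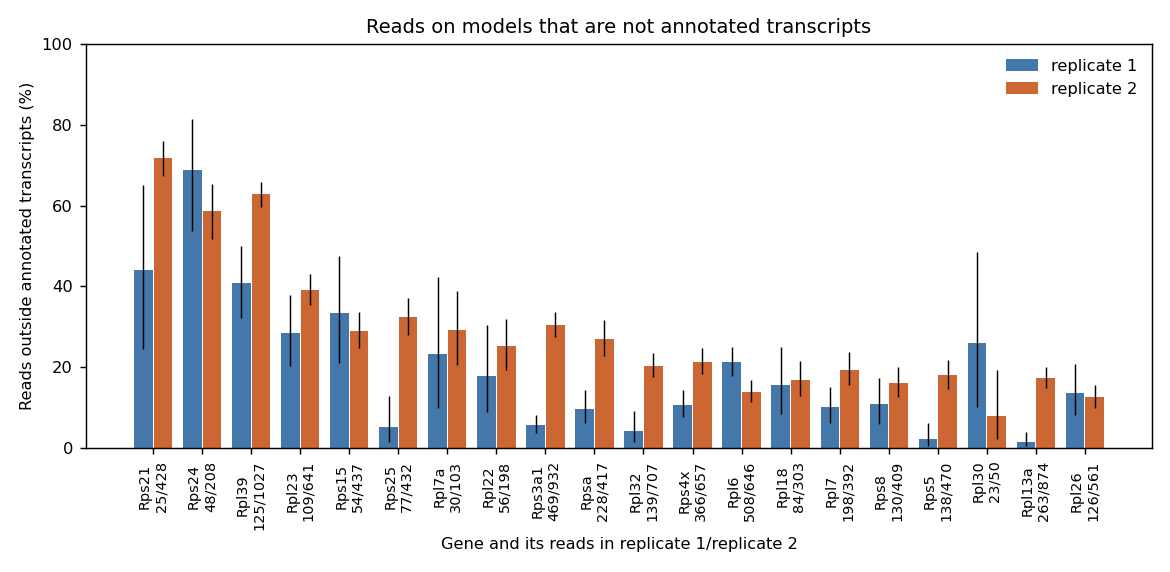
Share of a gene's reads on models that are not annotated transcripts (percent) in replicate 1 (blue) and replicate 2 (orange), for 20 members with high shares among those with at least 20 reads in each library; bars are 95% Clopper-Pearson intervals and read numbers stand under each name. Rps21, Rps24 and Rpl39 lie above 50% in replicate 2.

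The test of annotated isoforms called few members. The share of the top annotated transcript among a gene's annotated reads differed between libraries in 4 of 60 members tested, where 2.17% of 3040 genes tested were called (Fisher's exact test, Benjamini-Hochberg adjustment). In Rpl7 the coding transcript Rpl7-201 had all 178 annotated reads in replicate 1 and 261 of 316 (82.6%) in replicate 2. The other 55 reads were on Rpl7-203, a 2-exon processed transcript of 421 nt (adjusted p = 1.53e-09 by Fisher's exact test). In Rpl28, the share of Rpl28-201 was 63.5% and 87.4%, and Rpl28-202 had 18 of 52 and 29 of 269 reads (adjusted p = 0.00936 by Fisher's exact test).

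Rpl37 and Rps2 had smaller differences. Rpl37-201 had 88.6% and 98.6% (adjusted p = 0.0116 by Fisher's exact test). Rps2-208 had 81.6% and 92.3%, with Rps2-201 as the second (adjusted p = 0.0472 by Fisher's exact test). Rps2 was not called with a minimum of 10 reads, where 1.58% of 3934 genes were. Against the second transcript alone 5 of 60 members were called, where 2.34% of 3040 genes were: Rpl7, Rpl28, Rpl10a, Rpl11 and Rpl18, but neither Rpl37 nor Rps2. Counting all models of the gene instead of annotated transcripts raised the calls to 14 of 60 members and 20.8% of 3040 genes, with Rpl37 not among them.

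Members with a second isoform of some size in both libraries included Rpl5, Rpl8, Rpl38, Rps28 and Rps19. In Rpl5 the second was the protein-coding Rpl5-201, with 124 of 332 annotated reads (37.3%) and 143 of 513 (27.9%). The top transcript, Rpl5-204, is annotated as a retained intron (61.1% and 69.8%). Rpl38-201 had 22 of 86 (25.6%) and 194 of 606 (32.0%), and Rps28-201 had 30 of 85 (35.3%) and 197 of 678 (29.1%). Rpl8-202 had 66 of 208 (31.7%) and 112 of 528 (21.2%). Rps19-202 had 17.9% and 15.1%. Other second shares were those of Rpl27-202 (27.9% and 21.8%), Rpl34-201 (24.5% and 14.4%) and Rpl23-203, a processed transcript (10.3% and 16.9%). Of these, Rpl8 came nearest to a call (adjusted p = 0.117 by Fisher's exact test).

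Rps24, a small-subunit protein whose last coding exons are spliced in alternative ways, had the most-read new exon chain of all members. The gene lies at chr14:24487125-24496959 (+, mm10) and had 48 reads in replicate 1 and 208 in replicate 2 (51.7 and 160 CPM, 3.08-fold; Fisher's exact test, adjusted p = 1.95e-13). Only 15 and 86 of these reads were on annotated transcripts. Rps24-210, which joins the exon before the short exons straight to the final exon, had 12 of 15 (80%, 95% Clopper-Pearson interval 51.9 to 95.7) and 80 of 86 (93.0%, 85.4 to 97.4).

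The sequences of the short exons show what their inclusion changes. The annotation gives an 18-nt exon at chr14:24494052-24494069 and a 20-nt exon at chr14:24495430-24495449, both in Rps24-205, and a final exon that starts at chr14:24495775. All are from the GENCODE M21 transcripts (mm10, plus strand), with stop codons that the annotation marks in capitals:
last 30 bases of the exon before: gcgaaggccaatgttggtgctggcaaaaag
18-nt exon: aaaTGAaatacctagcag
18 bases after it, in the 36-nt exon: gtactgccattgggcacg
20-nt exon: TGAgtggagattggatacag
first 30 bases of the final exon: ccaaaggagTAGatctgcggtgacttgatg

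Without a short exon the coding sequence runs 9 bases into the final exon to its TAG. With the 18-nt exon it ends at the TGA that follows 3 bases in. The exon most often seen between the 2 flanking exons was neither annotated short exon but a 36-nt exon that starts where the 18-nt exon starts and takes in the 18 bases after it. The 2 bases that follow on the genome are GT after both the 18-nt and the 36-nt end.

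Counting models by what lies between the flanking exons gave another picture of Rps24 than annotated transcripts alone. Of reads that joined both exons, 15 of 36 in replicate 1 (41.7%, 95% Clopper-Pearson interval 25.5 to 59.2) and 120 of 192 in replicate 2 (62.5%, 55.2 to 69.4) had no exon between them, a mean of 52.1% ± 14.7 (SD, n = 2). The 36-nt exon was in 19 (52.8%, 35.5 to 69.6) and 62 (32.3%, 25.7 to 39.4), and is not an exon of GENCODE M21. Of those reads 15 and 51 were on models of the class with a new splice site, 3 and 10 on incomplete matches and 1 and 1 on new combinations of exons. The 18-nt exon was in 0 and 8 reads, and a 38-nt exon with the same start was in 1 and 2. The annotated 20-nt exon was in 0 reads as a separate exon, which allows a share of up to 8.33% and 1.56% (3 reads). That limit holds only for exons as aligned, and whether its bases were placed in another exon was not tested. Rps24 did not have enough annotated reads in replicate 1 for the isoform test. Whether the end of the 36-nt exon comes from the alignment of so short an exon was not tested, as the reads were not used here.

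**Figure D4:**
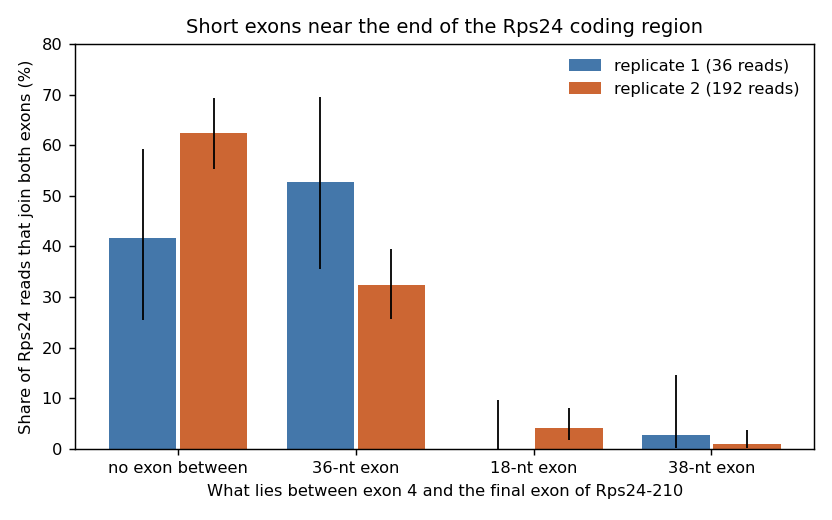
Share (percent) of Rps24 reads that join exon 4 and the final exon of Rps24-210 and hold no exon or 1 short exon between them, in replicate 1 (blue, 36 reads) and replicate 2 (orange, 192 reads); bars are 95% Clopper-Pearson intervals. The 36-nt exon accounts for 52.8% and 32.3%, and the 18-nt exon for 0% and 4.17%.

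Other new exon chains of members were rare. In all, 379 unannotated chains had 247 and 474 reads, 46 of them were seen in both libraries, and 3 had at least 5 reads in both: that of Rps24, 1 of Rpl3 (10 and 11 reads) and 1 of Rpl26 (5 and 8 reads). Small nucleolar RNAs, which guide rRNA modification and are encoded in introns of these genes, gave almost no reads: 58 such genes in 30 members had 8 and 13 reads.

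Ribosomal protein genes with other names were measured too. Rps27a, which encodes ubiquitin fused to a ribosomal protein, stood at 152 and 659 CPM. Fau, a ubiquitin-like fusion, stood at 85.1 and 271 CPM. Both were higher (Fisher's exact test, adjusted p at most 2.37e-23). Rack1, a scaffold protein of the small subunit, stood at 220 and 236 CPM and did not pass, but did with TMM scaling (log2 ratio 0.37). Of the 10 "-like" and related paralogs 8 had reads, 6 were higher and 1 lower, where 13% and 22.2% of all genes tested were. The higher ones were Rpl36al (101 and 368 CPM), Rpl37rt (67.9 and 387), Rps27l (90.5 and 207), Rpl22l1 (55.0 and 197), Rps27rt (19.4 and 111) and Rpl3l (1 and 19 reads). Rpl7l1 was lower at 196 and 127 CPM, a call lost with TMM scaling (log2 ratio -0.36), and Rps4l did not pass at 43.1 and 48.3 CPM. Several of these are near-identical to a member, as Rpl37rt is to Rpl37.

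Other parts of the translation machinery held both higher and lower genes, where 13% of all genes tested were higher and 22.2% lower. Of 40 ribosome assembly genes 3 were higher and 14 lower, with a median log2 ratio of -0.43. Nop10, a short protein of the pseudouridylation complex, was higher (106 and 308 CPM), and the nucleolar proteins Npm1 (323 and 140 CPM) and Ncl (306 and 243 CPM) were lower, Ncl not with TMM scaling. Of 18 other TOP mRNAs 5 were higher and 11 lower (median -0.42). Elongation factor Eef2 was higher (708 and 1238 CPM), as was Tpt1 (367 and 591), and Eef1a1 was lower (1175 and 799). Of 78 mitochondrial ribosomal proteins, which serve the separate ribosome of mitochondria, 35 were higher and 13 lower (median 0.31), with Mrpl30 highest in level at 115 and 526 CPM. Of 51 tested "-ps" pseudogenes of the members 36 were higher and 1, Rpl3-ps1, was lower (median 1.88). With TMM scaling these counts became 4 higher and 6 lower in the assembly genes, 7 and 6 in the other TOP mRNAs, 40 and 5 in the mitochondrial genes and 38 and 0 in the pseudogenes. Against the ratio expected from transcript length they were 4 and 5, 4 and 8, 22 and 6, and 6 and 2. Of all genes in that comparison, 13.3% were called higher and 9.95% lower. The median length of the most-read annotated transcript was 830 nt in the members, 2491 nt in the assembly genes, 1766 nt in the other TOP mRNAs, 1302 nt in the mitochondrial genes and 456 nt in the pseudogenes.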

How the data were processed

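The 2 deposited tables, 1 per library, gave read counts per transcript model, which the authors made by assigning long reads to models named by TALON on mm10 with GENCODE M21, per the file headers and notes; the aligner and its version: not given in the sources used here. Numbers of exons, lengths in bases and positions (1-based) are as deposited by the authors. Reads were summed per annotated gene without spike-ins and unannotated loci; CPM, ratios and shares were computed from these sums (Python 3.11.15, scipy 1.17.1). Genes with 10 or more reads were tested by Fisher's exact test against all other gene reads, and isoforms with 20 or more annotated reads per library, adjusted at 0.05 by Benjamini-Hochberg over all genes. Alternatives used edgeR 4.0.16 and DESeq2 1.42.0 scaling. Copies were found with BLAST 2.17.0. Tests were checked on simulated counts with counting error only, which cannot show how they behave when libraries differ by more than that. The members, lists and the rule for named genes (highest and lowest levels and ratios, isoform calls, largest share outside annotated transcripts) were chosen with earlier results of these data known. Values of some genes and transcripts are not reported here; sums, medians and counts include all members.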

Additional observations from a re-analysis of the deposited data

How the results depend on the processing

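The count of members that differ (70 of 77) lay between 49 (ratio expected from transcript length) and 75 (copies summed) under 10 of 11 alternatives, of which coding length and copies were added after the data were seen. Under edgeR's exact test with a common dispersion it was 0, but that dispersion was estimated from the same difference that was tested. TMM and DESeq2 scaling shifted the median log2 ratio of all genes by 0.26 and moved the share of higher genes among all calls from 36.9% to 59.9% and 59.3%. Rpl4 reversed with them (0.074 and 0.066), with coding length (0.18) and in edgeR (0.074). With transcript length Rpl22 (-0.017), Rpl9 (-0.10), Rps4x (-0.046) and Rps6 (-0.42) reversed, and with copies Rpl21 (0.55). The cause was not tested.

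With all models of the gene 14 members differed in isoform usage instead of 4. The Rps24-210 share of 86.5% became 52.1% over all models that join both exons, and the single-exon share of 2.91% became 14% over all reads outside annotated transcripts. Leaving out 1 replicate gave sums of 14079 to 31853 CPM, Rps24 shares of 80% to 93.0% and single-exon shares of 1.16% to 4.67%. No paired analysis was possible because there is 1 group. Depth limits Rps24 in replicate 1 and members with under 50 reads.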
